A study of Rattus norvegicus with 39 samples.

Results

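The miRNAs followed here through rat sperm libraries were rno-miR-143-3p and rno-miR-145-5p, known from smooth muscle, and rno-miR-1-3p and rno-miR-133a-3p, known from heart and skeletal muscle. They were chosen by name, with earlier results of these data known, and make up 4 of the 405 rows of the mature miRNA table. The libraries came from spermatozoa of the cauda epididymis of wild-type Fischer rats aged 11 to 12 weeks. Each library held the RNA of 1 male. The males had been gavaged once a day for 5 days and were then left without exposure for 5 weeks. The 4 groups received the water vehicle (EGME0, n = 10) or the solvent ethylene glycol monomethyl ether (EGME) at 50 (EGME50, n = 10), 60 (EGME60, n = 9) or 75 mg/kg/d (EGME75, n = 10). The number of sperm and any purification from other cells were not given in the sources used here.

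miRNAs are short RNAs that guide Argonaute proteins to messenger RNAs, mainly through the seed, bases 2 to 8 of the mature strand. miR-143 and miR-145 are processed from 1 primary transcript and are known to promote the contractile state of smooth muscle, the cell type that forms the muscular coat of the epididymal duct and of vessels. miR-1 and miR-133a are likewise processed from shared transcripts and act in the differentiation and growth of striated muscle. Neither pair is a known marker of germ cells.

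The mature sequences are shown because the seeds separate the 4 members, while some close relatives differ from them by a single base. Sequences are from RefSeq (GRCr8), 5′ to 3′, with the seed in capitals.
miR-143-3p: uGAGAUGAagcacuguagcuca
miR-145-5p: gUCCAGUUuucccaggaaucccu
miR-1-3p: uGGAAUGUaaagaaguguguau
miR-1b: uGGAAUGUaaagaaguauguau
miR-206-3p: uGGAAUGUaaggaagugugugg
miR-133a-3p: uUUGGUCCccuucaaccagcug
miR-133b-3p: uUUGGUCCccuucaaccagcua

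All 4 members had a mature entry in that reference of 724 mature sequences. There, no other entry carried the seed of miR-143-3p or of miR-145-5p. The seed of miR-1-3p was shared with miR-1b and miR-206-3p, and that of miR-133a-3p with miR-133b-3p. Counting positions from 1 at the 5′ end, miR-1b differs from miR-1-3p by G17A alone, and miR-206-3p by A11G, A21G and U22G. miR-133b-3p differs from miR-133a-3p by G22A, its last base, so a read lacking that base fits both. How such reads were counted was not given in the sources used here, and the split between these relatives is therefore uncertain.

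In the GRCr8 assembly, Mir143 (chr18:57371349-57371453) and Mir145 (chr18:57369983-57370070) lie 1278 bases apart on the minus strand, within the long noncoding RNA gene Carmn. Mir1 (chr18:2160327-2160413) and Mir133a1 (chr18:2157872-2157958) lie 2368 bases apart on the minus strand, within the span of the protein-coding gene Mib1. The mature table itself gives no coordinates, and exon or intron was not resolved here.

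The miRNA table was thin and its depth fell at the top dose. Totals ran from 139 to 38208 miRNA counts per library, with medians of 15324.5, 14785.5, 9270 and 3201.5 from EGME0 to EGME75. As a share of the counts in the 4 deposited tables (miRNA, tRNA gene, noncoding transcript and RNAcentral), miRNAs made up 0.178% ± 0.0731 (SD, n = 10) at EGME0 and 0.0554% ± 0.0522 (SD, n = 10) at EGME75. The germ cell miRNAs miR-34b, miR-34c and miR-449, which mark spermatogenic cells, were abundant in every group, with a summed median of 322343 CPM at EGME0 and 109255 at EGME75. CPM stands for counts per 1000000 miRNA counts, scaled by the trimmed mean of M-values (TMM), unless another denominator is named.

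miR-145-5p was the most abundant member. It was counted in all 39 libraries, always above miR-143-3p. Scaled to the other miRNAs it was higher than in controls at EGME60 and EGME75, a direction that turned at EGME75 with the 4 summed tables as library size. In control males it ranged from 11032 CPM (replicate 18) through a median of 18404 to 27205 CPM (replicate 33). At EGME50 the range was 10778, 24780 and 34240 CPM (lowest, median and highest). At EGME60 it was 19378, 32520 and 113791 CPM. At EGME75 it was 6980, 28892 and 75976 CPM. All 4 groups overlapped. The highest control value was exceeded by 5 of 10 males at EGME50, 7 of 9 at EGME60 and 6 of 10 at EGME75. EGME50 replicate 3 and EGME75 replicate 23 lay below every control. Shallow libraries weigh here: the highest control value was 30 of 1098 miRNA counts, and that of EGME75 replicate 23 was 7 of 807.

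**Figure D1:**
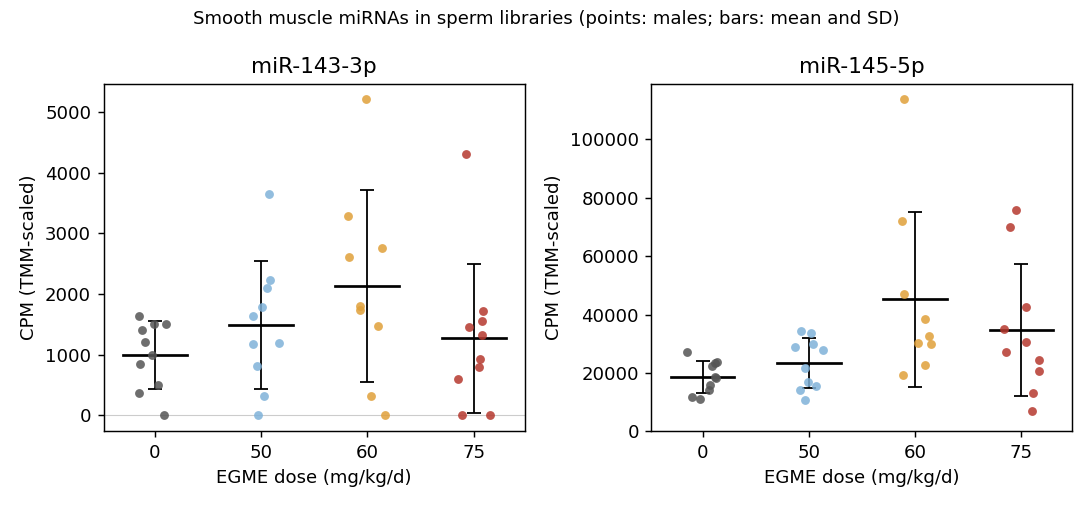
Level of miR-143-3p (left) and miR-145-5p (right) in each male, as TMM-scaled counts per 1000000 miRNA counts, by EGME dose; points are males, bars the mean and SD. The control males of miR-145-5p sit between 11032 and 27205 CPM, while EGME60 replicate 29 reaches 113791 CPM and the groups overlap.

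The control mean of miR-145-5p was 18570 ± 5488 CPM (SD, n = 10), and the EGME50 mean was 23325 ± 8639 CPM (SD, n = 10). The means of the 2 upper doses were 45159 ± 30108 CPM (SD, n = 9) for EGME60 and 34615 ± 22668 CPM (SD, n = 10) for EGME75. The spread between males thus grew at the 2 upper doses along with the mean. In the order of mean levels within each group, miR-145-5p held place 18 among 308 detected miRNAs in controls. It held place 12 of 325, place 5 of 326 and place 4 of 244 with rising dose.

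Against control, the log2 fold change of miR-145-5p was 0.34 at EGME50 (SE 0.32, 95% interval -0.30 to 0.98, edgeR quasi-likelihood test with Benjamini-Hochberg adjustment over 105 miRNAs, adjusted p = 0.636). It was 1.30 at EGME60 (SE 0.33, adjusted p = 0.00202; above the control median in 9 of 9 males). It was 0.94 at EGME75 (SE 0.33, adjusted p = 0.0140; above the control median in 8 of 10 males). The fitted slope on dose came to 1.11 over 75 mg/kg/d (SE 0.33, edgeR adjusted p = 0.00439). These calls stand against a background in which 2.86% of tested miRNAs passed the test at EGME50, 31.4% at EGME60, 42.9% at EGME75 and 45.7% for the slope. Higher calls alone made up 2.86%, 20%, 21.9% and 24.8% of tested miRNAs, and lower calls 0%, 11.4%, 21% and 21%. With miRNA totals alone as library size the calls leaned further upward (at EGME60 to 32 higher against 7 lower, from 21 and 12 with TMM, and at EGME75 to 33 against 10, from 23 and 22). The median over all tested miRNAs was -0.01, 0.11, -0.10 and 0.04 on the log2 scale in these comparisons. Ranked by log2 fold change, miR-145-5p took place 21 of 105 at EGME60 and place 29 at EGME75.

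The rise at EGME75 was one relative to other miRNAs. With the 4 tables together as denominator, miR-145-5p averaged, in counts per 1000000, 25.2 ± 8.76 (SD, n = 10) in controls, 36.3 ± 20.5 (SD, n = 10) with 50 mg/kg/d, 57.2 ± 58.1 (SD, n = 9) with 60 and 23 ± 21.5 (SD, n = 10) with 75. With that denominator the log2 fold change was 1.19 at EGME60 (edgeR adjusted p = 0.176) and -0.12 at EGME75 (SE 0.54, edgeR adjusted p = 0.909), against a median of all tested miRNAs at EGME75 of -1.13. With it, 3 miRNAs were called higher and 39 lower at EGME75. As a share of miRNA counts without further scaling, miR-145-5p was 1.51% ± 0.531 (SD, n = 10) at EGME0, 2.38% ± 1.13 (n = 10), 4.76% ± 3.21 (n = 9) and 4.24% ± 2.60 (n = 10). In these bulk libraries, a change in the number of cells of a type and a change in RNA per cell cannot be told apart.

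**Figure D2:**
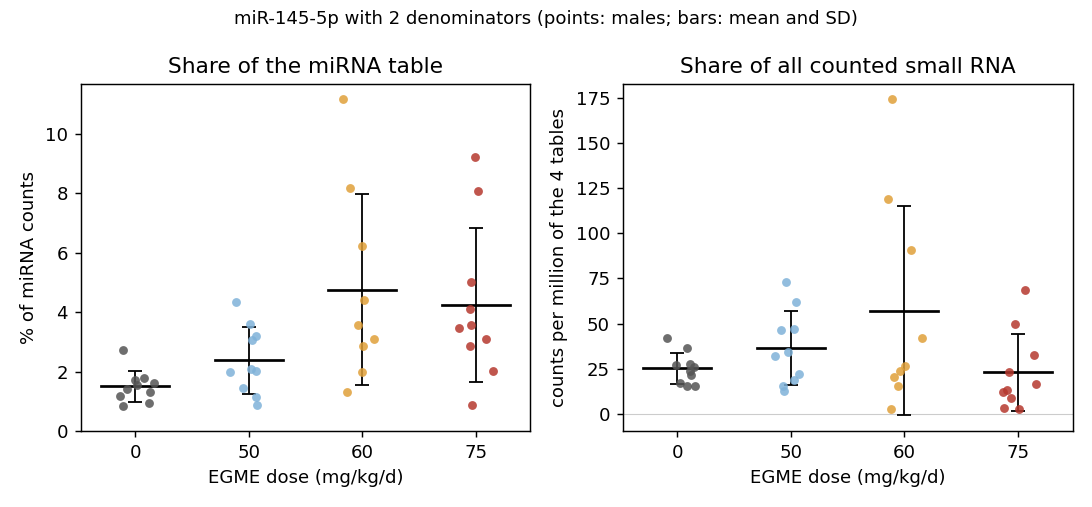
miR-145-5p in each male as a percentage of miRNA counts (left) and per 1000000 counts of the 4 tables (right), by EGME dose; points are males, bars the mean and SD. The EGME75 mean is above control on the left (4.24% against 1.51%) and near it on the right (23 against 25.2 counts per 1000000).

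The EGME75 call of miR-145-5p was not kept when chip, the sequencing chip given in the labels, entered the fit. With chip as a fixed block over the 13 chips, miR-145-5p was 0.97 higher on the log2 scale at EGME60 (edgeR adjusted p = 0.0275) and 0.75 higher at EGME75 (edgeR adjusted p = 0.0873, not called). Each chip held 3 libraries, too few for values within a chip. Some chips held no control library, so dose and chip were partly confounded, and why the call was lost was not tested. Leaving out EGME0 replicate 9 also ended the EGME75 call (log2 fold change 0.74, edgeR adjusted p = 0.0810). An exact two-sided permutation test of mean log2 CPM, adjusted over 404 detected miRNAs, did not call miR-145-5p at EGME60 (difference 1.11, exact permutation p = 5.7e-04, adjusted p = 0.0551) or at EGME75 (0.65, exact permutation p = 0.0846, adjusted p = 0.351). That test called 0% of miRNAs at EGME60, where 59 had an unadjusted p under 0.05 and edgeR called 33 of its 105. At EGME75 it called 8.91%, with 2.48% higher and 6.44% lower.

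miR-143-3p, which is made from the same primary transcript, was far lower. It was detected in 34 of 39 libraries, and 1, 1, 1 and 2 libraries of the 4 groups had no count. Its range (lowest, median and highest) was 0, 1110 and 1642 CPM at EGME0, and 0, 1415 and 3659 CPM at EGME50. At EGME60 it was 0, 1797 and 5211 CPM, and at EGME75 it was 0, 1133 and 4318 CPM. The groups overlapped throughout. The highest male of EGME60 (replicate 29) and of EGME75 (replicate 32) were the same males that led for miR-145-5p. In the other groups the leading males of miR-143-3p and miR-145-5p differed (replicates 1 and 33 at EGME0, 35 and 19 at EGME50). The group means were 1000 ± 558 CPM (SD, n = 10), 1492 ± 1053 (n = 10), 2134 ± 1580 (n = 9) and 1272 ± 1230 (n = 10). In counts, the medians were 9.5, 20.5, 17 and 3, so that at EGME75 the value in a typical male rested on 3 reads.

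No difference from control passed the threshold for miR-143-3p. The log2 fold change was 0.51 at EGME50 (SE 0.50, 95% interval -0.48 to 1.5, edgeR adjusted p = 0.636). It was 1.08 at EGME60 (SE 0.51, 0.07 to 2.09, edgeR adjusted p = 0.0883) and 0.49 at EGME75 (SE 0.53, -0.56 to 1.54, edgeR adjusted p = 0.435). The slope over 75 mg/kg/d was 0.80 (SE 0.51, -0.22 to 1.81, edgeR adjusted p = 0.190). These intervals include the log2 fold changes of miR-145-5p at the same doses, and the difference between the 2 miRNAs was not tested. The EGME60 value was called without replicate 6 (edgeR adjusted p = 0.0452) or replicate 22 (adjusted p = 0.0480), with miRNA totals alone (1.5, edgeR adjusted p = 0.0209) and with log10 of the miRNA total as a covariate (1.19, adjusted p = 0.0439). Without EGME75 replicate 32 the EGME75 value was 0.13. With the 4 summed tables as library size, the EGME75 value was negative (-0.60, edgeR adjusted p = 0.585).

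**Figure D3:**
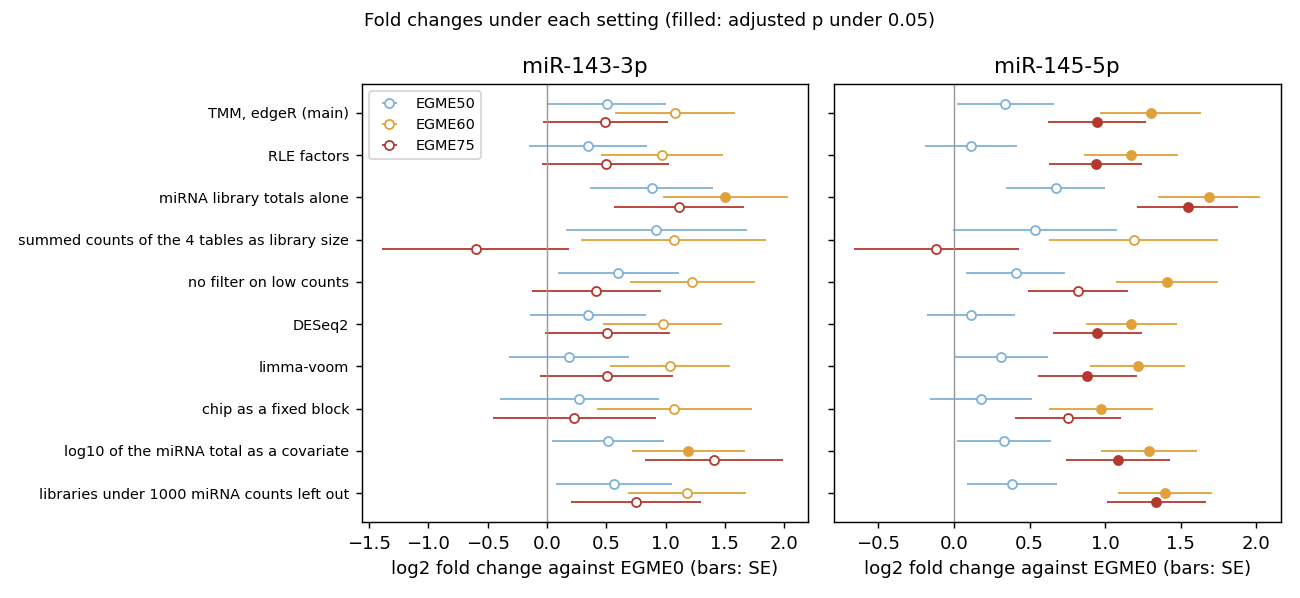
Log2 fold change against EGME0 (x axis; bars: SE) of miR-143-3p and miR-145-5p at each dose under each setting (y axis), with filled points where the adjusted p was under 0.05. At EGME60 the miR-145-5p value ranges from 0.97 to 1.69, and both EGME75 values are below 0 with the 4 summed tables as library size.

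Within libraries, the count of miR-145-5p was a multiple of that of miR-143-3p. Over the 34 libraries with both, the ratio of counts had a median of 17.2 and ran from 5.94 to 93.5. By group the ratio of summed counts was 13.9 in controls (2161 against 155 counts) and 11.8 for EGME50 (3678 against 312). It was 17.8 for EGME60 (7288 against 409) and 21.7 for EGME75 (1847 against 85), and the ranges over males overlapped. Both mature strands are of similar length (22 and 23 bases). The counts were not corrected here for ligation bias, and the ratio is one of counts. Spearman's rho between the 2 levels was 0.49 over the 39 libraries as a description. Within the groups, rho was -0.41 in controls and 0.48, 0.80 and 0.61 with rising dose. The libraries share chips and differ in depth.

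**Figure D4:**
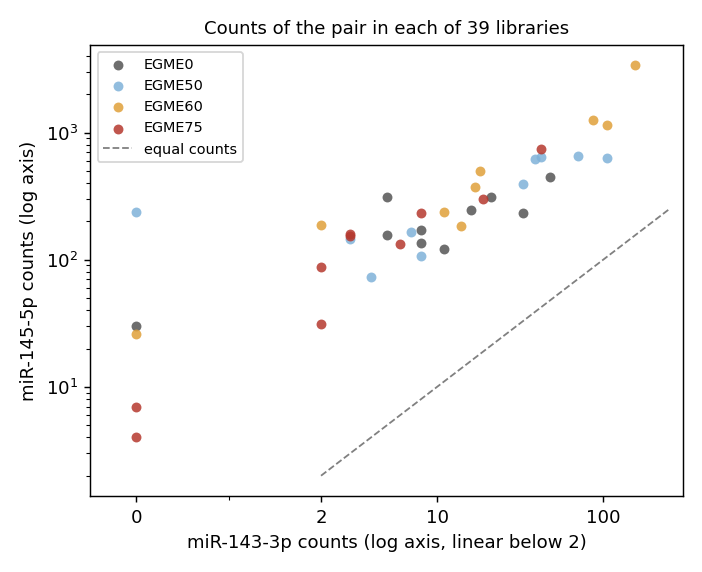
Counts of miR-145-5p (y axis, log) against miR-143-3p (x axis, log above 2) in each of the 39 libraries, coloured by group, with a dashed line of equal counts. All 39 libraries lie above the line, and 5 libraries have no miR-143-3p count.

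The opposite arms of the hairpins were barely seen. miR-145-3p had 7, 21, 10 and 10 counts in the 4 groups, from 1, 4, 3 and 3 libraries, and miR-143-5p had 5 counts, all in EGME75 replicate 32. Both arms of miR-145 together thus came almost wholly from the 5p strand. Neither opposite arm passed the filter on low counts. The 5p arms of miR-1 and miR-133a were not analysed here.

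Over the 39 libraries pooled, the miRNAs with levels closest to miR-145-5p were miR-23a-3p (Spearman's rho 0.69), miR-652-3p (0.61) and miR-22-3p (0.61). Within the control males alone these values were -0.10, 0.10 and -0.30. For miR-143-3p the closest were miR-30a-5p (rho 0.59, and 0.37 within controls), miR-27b-3p (0.58 and 0.89) and miR-202-5p (0.57 and 0.72). These are descriptions over libraries that share dose groups, chips and depth. In place 8 among the nearest to miR-143-3p stood miR-145-5p, and in place 18 among those nearest to miR-145-5p stood miR-143-3p.

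EGME60 replicate 29 held the highest miR-145-5p level of all 39 libraries, 3385 of 30287 miRNA counts. In the same library, the summed fibroblast and stroma markers miR-199a-3p, miR-199a-5p and miR-214-3p stood at 15766 CPM, against 6688 CPM in the next highest EGME60 male. The summed endothelial strands miR-126a-3p and miR-126a-5p stood at 8236 CPM, against 1731 CPM in the next EGME60 male. Its epithelial sum of 18052 CPM was below the EGME60 median of 21227 CPM, and its blood cell sum of 10791 CPM was above the EGME60 median of 8164 CPM. The library with the next highest miR-145-5p level was EGME75 replicate 32 (75976 CPM). Its stroma sum of 1748 CPM and endothelial sum of 617 CPM lay close to the EGME75 medians of 1824 and 621 CPM. Its epithelial and blood cell marker sums of 36291 and 9150 CPM were above the EGME75 medians of 30200 and 7278 CPM. Next in order came EGME60 replicate 38, with 6688 CPM for stroma and 1163 CPM for endothelium, against EGME60 medians of 2473 and 1247 CPM. Its epithelial sum of 21227 CPM was the EGME60 median itself, and its blood cell sum of 4071 CPM was below the median. Then came EGME75 replicate 40, with 3541 and 885 CPM, both above the EGME75 medians. Its epithelial and blood cell sums of 30983 and 7524 CPM were above the EGME75 medians as well. This library held only 1954 miRNA counts, and 3 counts of miR-143-3p there stood at 1328 CPM, so these sums rest on few reads. Without EGME60 replicate 29 the EGME60 log2 fold change of miR-145-5p was 1.04 and the mean 36580 ± 16702 CPM (SD, n = 8), and the call by edgeR held.

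The marker lists of other cell types, also chosen with earlier results of these data known, were read from the same fit. Of 3 fibroblast and stroma markers 2 were tested, and 1 was higher at EGME60 (miR-214-3p, 2.16, edgeR adjusted p = 0.0159), 0 at EGME50 and 0 at EGME75. Over all tested miRNAs, 2.86%, 20% and 21.9% were higher with rising dose. The other tested stroma marker, miR-199a-3p, was at 1.17, 1.06 and 0.15 with rising dose and was not called. Of the 441 EGME60 counts of miR-214-3p, 326 were in replicate 29, and without that library its value was 1.23 (edgeR adjusted p = 0.190) and no stroma marker was called. The summed stroma level ranged from 0 to 3159 CPM in controls and 203 to 9035 at EGME50. It ranged from 0 to 15766 at EGME60 and 0 to 4694 at EGME75. Neither endothelial marker passed the filter. Their summed level ranged from 0 to 1970 CPM in controls and 0 to 1699 at EGME50. It ranged from 980 to 8236 at EGME60 and 0 to 3196 at EGME75.

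Of 7 epithelial markers 6 were tested, and 2, 4 and 5 were higher with rising dose, where 2.86%, 20% and 21.9% of all tested miRNAs were higher. Their summed level ranged from 8432 to 16511 CPM in controls and 11126 to 28753 at EGME50. It ranged from 3727 to 38397 at EGME60 and 16251 to 53375 at EGME75. Of 7 blood cell markers 3 were tested, and 0, 3 and 3 were higher. The blood cell sum ranged from 0 to 4582 CPM in controls and 821 to 10685 at EGME50. It ranged from 247 to 16431 at EGME60 and 1994 to 37548 at EGME75. The blood marker miR-144-3p was at 0 in every group but EGME60. Of 6 germ cell markers 5 were tested, and 0, 3 and 4 were lower, where 0%, 11.4% and 21% of all tested miRNAs were lower. Without EGME60 replicate 29, a choice made after seeing the data, the EGME60 counts were 4 epithelial and 2 blood cell markers higher and 2 germ cell markers lower. Over the 19 fits without 1 control or EGME60 library, 26 to 42 of all tested miRNAs were called at EGME60 in either direction. That range includes the fit without replicate 29, whose calls by direction are not given here. The marker counts of that fit are therefore not read as a result about the markers. With the 4 summed tables as library size no marker of these lists was called at EGME60. In that setting only 1 of all tested miRNAs was called at EGME60, so the absence of marker calls is near the background. At EGME75, 1 epithelial marker was then higher, 0 blood cell markers were higher and 5 germ cell markers were lower. In that setting lower calls far outnumbered higher calls over all tested miRNAs at EGME75, as given above. What part the levels of these markers had in the values of miR-145-5p was not tested.

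Most counts of the striated muscle members came from 1 library, that of control male EGME0 replicate 10. miR-1-3p had 28 counts there and 0 in the other 38 libraries, which together held 497325 miRNA counts. miR-133a-3p had 171 counts there, 1.55% of that library's miRNA counts, and 40 counts over the other 38 libraries. miR-206-3p, known as a skeletal muscle miRNA, had 11 counts and miR-133b-3p 10 counts in this library, and both had 0 in all others. miR-1b had 52 counts there and 16 elsewhere. miR-499-5p, which is encoded in a myosin gene of slow and cardiac muscle, was at 0 in this library and had 53 counts spread over 12 others. Of the 7 striated relatives listed, 4 were in the table and 0 passed the filter, and miR-206-5p, miR-208a-3p and miR-208b-3p were not analysed here.

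**Figure D5:**
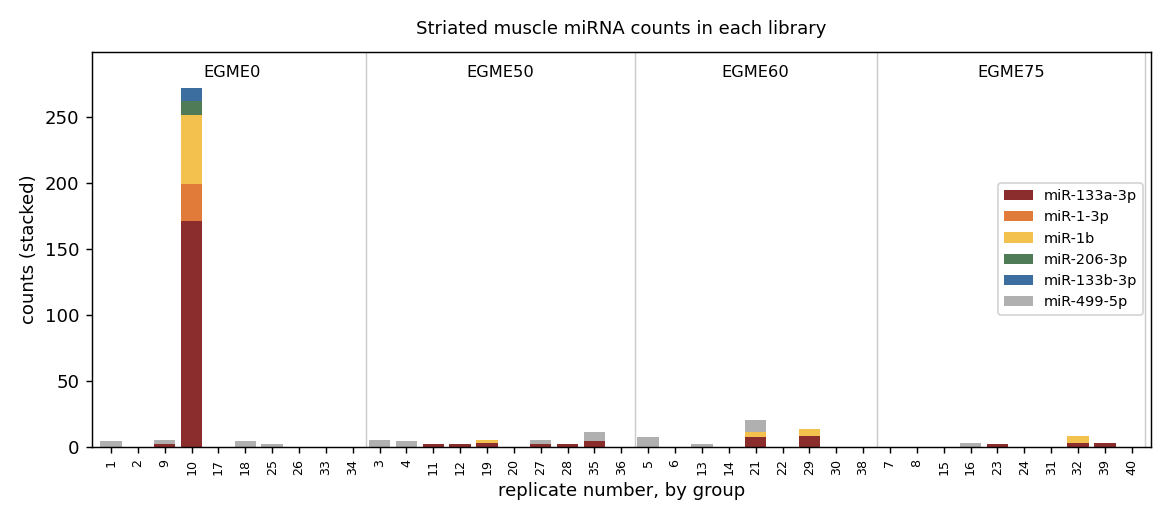
Stacked counts of 6 striated muscle miRNAs (y axis) in each library (x axis, replicate numbers grouped by dose). EGME0 replicate 10 holds 171 counts of miR-133a-3p, 52 of miR-1b, 28 of miR-1-3p, 11 of miR-206-3p and 10 of miR-133b-3p, while no other library has more than 8 counts of miR-133a-3p.

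The smooth muscle pair did not stand apart in EGME0 replicate 10: miR-145-5p was at 15760 CPM and miR-143-3p at 502 CPM, both inside the control range. Its fibroblast and stroma sum of 1205 CPM, endothelial sum of 803 CPM and blood cell sum of 1205 CPM were inside the control ranges as well. Its germ cell sum of 234489 CPM and its epithelial sum of 8432 CPM were the lowest of the control males. The other 2 libraries on its chip, EGME50 replicates 4 and 27, had 0 and 2 counts of miR-133a-3p and no miR-1-3p. A search for miRNAs with at least 10 counts in 1 library and over 80% of all their counts there, set after these values were seen, returned 4 rows for EGME0 replicate 10 (miR-1-3p, miR-133a-3p, miR-133b-3p and miR-206-3p) and 1 row for the rest of the series (miR-134-5p in EGME60 replicate 21).

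Outside that library miR-133a-3p was sparse. It was counted in 1 of the 9 other control males (2 counts, replicate 9), in 6 of 10 at EGME50 (2 to 4 counts each), in 2 of 9 at EGME60 (7 counts in replicate 21 and 8 in replicate 29) and in 3 of 10 at EGME75 (2, 3 and 3 counts in replicates 23, 32 and 39). Pooled over males, these were 12.9 counts per 1000000 without EGME0 replicate 10 (exact Poisson 95% interval 1.57 to 46.7), 85.1 (47.6 to 140) at EGME50, 117 (65.4 to 193) at EGME60 and 210 (90.7 to 414) at EGME75. With replicate 10 the control value was 1044 (894 to 1212). The intervals cover counting error only and not the spread between males.

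Neither striated member passed the filter, so both were tested by the exact permutation test on all detected miRNAs. For miR-133a-3p the difference in mean log2 CPM from control was -0.16 at EGME50 (exact permutation p = 0.998), -0.44 at EGME60 (p = 0.946) and -0.05 at EGME75 (p = 0.946), each with an adjusted p of 1. Without EGME0 replicate 10 the signs turned, to 0.51 (exact permutation p = 0.0156, adjusted p = 0.621), 0.23 (p = 0.471, adjusted p = 0.985) and 0.62 (p = 0.211, adjusted p = 0.545), and none passed. For miR-1-3p the difference was -0.42 at each dose (exact permutation p = 1), all of it from that 1 library. With counts in a single control library no other p could arise, so the test could not decide about miR-1-3p. The test called 0% of miRNAs at EGME50, where 30 had an unadjusted p under 0.05 and edgeR called 3 of its 105. With 0 counts of miR-1-3p, 3 counts would correspond to 17 counts per 1000000 at EGME50, 23.4 at EGME60 and 78.8 at EGME75, so the limit was loosest at the top dose. Counts of 1 were nearly missing from the miRNA table (17 values of 1 against 1088 values of 2), so a 0 may hold a single read and these limits are too low by an unknown amount.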

How the data were processed

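Small RNA was sequenced from total RNA of cauda epididymal sperm, 1 male per library (39 libraries, 139 to 38208 miRNA counts each). Per the labels' protocols, RNA was extracted with the miRvana kit and libraries were built from 10 ng with an Ion total RNA kit. The authors deposited raw sense-strand counts in 4 tables. Each value is a whole number, and unmatched columns numbered 0. FastQC, Bowtie and DESeq2 are named in the submitters' processing notes. Versions, roles, the counter and the handling of reads that fit several miRNAs were not given in the sources used here. Whether 1 read can stand in several tables was not given either.

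Columns were assigned by library name. Members and lists were chosen with earlier results of these data known. The named miRNAs were the 4 members, the listed miRNAs, and for each member past the filter the 3 tested miRNAs with the highest Spearman correlation of log2 CPM over the 39 libraries. Counts were fitted over all 4 groups with edgeR 4.0.16 in R 4.3.3 (TMM, filterByExpr by group, robust quasi-likelihood tests, two-sided), and p-values were adjusted by Benjamini-Hochberg over the 105 miRNAs kept. The common biological coefficient of variation was 0.588. Of the 4 members 2 passed the filter. All detected miRNAs (404) were also compared by exact two-sided permutation tests of mean log2 CPM with a prior count of 2. Alternatives used DESeq2 1.42.0, limma 3.58.1 (voom), other scalings, chip, depth and single libraries. Plots used matplotlib 3.10.9.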

Additional observations from a re-analysis of the deposited data

Results flagged for a closer look

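In 3 dose groups all values of miR-1-3p were 0. Of the other 13 sets of values (a member in a dose group), 4 had a highest male separated from the next by more than Dixon's 95% limit. For normally distributed values chance flags at most about 1 in 20 such groups, and groups with many zeros are flagged more readily. miR-1-3p stood at 2811 CPM in EGME0 replicate 10 with the other 9 control males at 0. miR-133a-3p stood at 17165 CPM in the same library, against 62.6 CPM in the next control male. miR-133a-3p also stood at 1994 CPM in EGME75 replicate 23, against 308 CPM in the next, but this value was 2 counts in a library of 807 miRNA counts. miR-143-3p stood at 4318 CPM (42 counts) in EGME75 replicate 32, against 1719 CPM in the next male.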

How the results depend on the processing

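No paired analysis was possible because the numbers in the titles name males, and dose groups share none of them. Causes of the changes below were not tested, apart from settings that by construction use fewer libraries or more miRNAs.

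The EGME60 call of miR-145-5p was kept under 8 of 9 alternatives of the edgeR comparison and in each of 19 fits without 1 control or EGME60 library (1.04 to 1.51). With the 4 summed tables as library size, miR-145-5p was at 1.19 for EGME60, -0.12 for EGME75 and 0.49 for the slope, none called, and miR-143-3p at EGME75 was at -0.60. The EGME75 value of miR-145-5p also missed the threshold without a filter (0.82) and with chip as a block (0.75). It ranged from 0.74 to 1.13 with 1 library of the groups compared left out. miR-143-3p became called with miRNA totals alone (1.5 at EGME60, 1.38 for the slope) and with the depth covariate (1.19 and 1.34). Its EGME60 value ranged from 0.87 to 1.32 with 1 library left out.

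In the permutation test, miR-145-5p at EGME75 became called with totals alone (1.30) and without the libraries under 1000 counts (1.12). There, miR-143-3p at EGME75 turned from 0.00086 to -0.15 with a prior count of 0.5 and to -0.060 without EGME0 replicate 10. miR-133a-3p turned to 0.31 at EGME50 and 0.16 at EGME75 with a prior count of 0.5, and to 0.050 at EGME75 with totals alone. Without EGME0 replicate 10 it was 0.51, 0.23 and 0.62 with rising dose, and without EGME60 replicate 29 it was -0.58 at EGME60. Both omissions were chosen after seeing the data.

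The 3 calls at EGME50 became 0 with RLE factors (18 at an unadjusted p under 0.05), the 4 summed tables (9), limma-voom (20) and the chip block (8), against 3 with DESeq2. They became 11 with totals alone and 11 without a filter, and 0 to 5 with 1 library left out. The 33 calls at EGME60 became 1 with the 4 summed tables and 61 without a filter, and the 48 for the slope became 22 and 90. Median counts of miR-143-3p were 9.5 in controls and 3 at EGME75, so single reads weigh on its values.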
